A study of Homo sapiens with 6 samples.

Results

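The genes described here are 43 members of the unfolded protein response (UPR) and of the ATF4 programme, taken by gene symbol from a table of 24526 genes measured in WM266.4 melanoma cells. They were divided by role into an endoplasmic reticulum (ER) arm of 19 genes (14 of protein folding, 4 of ER-associated degradation and XBP1), an ATF4 arm of 20 genes and 4 sensors of the ER membrane. All 43 passed the filter on low counts. WM266.4 is an established human melanoma line, not treated otherwise here. Cells of the 3 control libraries (neg.si) received Silencer Select negative control siRNA and cells of the 3 RIPK4.si libraries received 1 Silencer Select siRNA against RIPK4, a receptor-interacting protein kinase, and poly(A) RNA was sequenced 48 h after transfection. A change due to that single siRNA sequence apart from RIPK4 cannot be told apart from a change due to RIPK4.

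The UPR is the response to unfolded protein in the ER. IRE1 (encoded by ERN1) splices XBP1 mRNA, ATF6 is cut in the Golgi to release a transcription factor, and PERK (EIF2AK3) phosphorylates eIF2 alpha, which lowers general translation while ATF4 mRNA is translated more. ATF6 and spliced XBP1 drive chaperone and degradation genes, whereas ATF4 drives genes of amino acid supply, redox control and stress-induced death and is also reached by other eIF2 alpha kinases, independently of the ER. In pigment cells the ER also makes the membrane proteins of melanosomes, and UPR and ATF4 activity is well known in melanoma.

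Promoter elements known for each arm are shown first. RefSeq promoters on GRCh38.p14, from 250 bases before to 50 bases after the transcript start, were at hand for 38 of the 43 genes. The ER stress response element (ERSE, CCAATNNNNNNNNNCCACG on either strand), to which NF-Y and ATF6 bind, was found in 6 of 18 ER-arm promoters and 0 of 16 ATF4-arm promoters, against 22 of 27305 promoters (0.0806%) and 16 of the 11037 that belong to genes tested here (0.145%). Each ERSE window below is written 5′ to 3′ on the strand of its gene, with the element in capitals, because all of them lay in genes of the ER arm.
HSPA5, chr9:125241385-125241414, minus strand: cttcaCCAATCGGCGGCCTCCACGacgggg
XBP1, chr22:28800597-28800626, minus strand: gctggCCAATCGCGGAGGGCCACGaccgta
CANX, chr5:179698773-179698802, plus strand: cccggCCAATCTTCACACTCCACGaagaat
HSP90B1, chr12:103930211-103930240, plus strand: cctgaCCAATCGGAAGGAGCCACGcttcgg
HSP90B1, chr12:103930316-103930345, plus strand: gggtgCGTGGTGCGGCGCGATTGGtgggtt
CALR, chr19:12938379-12938408, plus strand: ccacgCGTGGTCGACCATCATTGGtcggtg
CRELD2, chr22:49918549-49918578, plus strand: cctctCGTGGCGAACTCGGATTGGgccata
The second HSP90B1 site and those of CALR and CRELD2 lie in the opposite orientation, so that the capitals there read as the reverse complement. With -1 as the base before the start, the HSPA5 element ran from -66 to -48 and that of XBP1 from -52 to -34.

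ERSE-II (ATTGGNCCACG), bound by NF-Y with ATF6 or XBP1, was found in 3 further ER-arm promoters, against 15 of 27305 (0.0549%) and 10 of the 11037 of tested genes (0.0906%). HYOU1 held it at a pair of sites, the first of which overlapped the only UPRE (TGACGTGG) found among the members. The UPRE was present in 217 promoters (0.795%) and in 0.915% of those of tested genes.
HERPUD1, chr16:56932016-56932045, plus strand: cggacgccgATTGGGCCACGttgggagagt
SDF2L1, chr22:21642105-21642134, plus strand: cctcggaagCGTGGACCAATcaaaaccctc
HYOU1, chr11:119057370-119057399, minus strand: gccccgtgaCGTGGTCCAATcccaggccga
HYOU1, chr11:119057264-119057293, minus strand: ggcctgggaCGTGGTCCAATgagtacgcgc

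The C/EBP-ATF response element (CARE), searched as TGATGNAA, is the site of ATF4 with a C/EBP partner. It was found in 3 of 16 ATF4-arm promoters and in 1 of 18 ER-arm promoters, that of HERPUD1. This short word was present in 1003 of 27305 promoters (3.67%) and in 185 of the 11037 of tested genes (1.68%), far more often than the ERSE. A match is a description of these letters in this window and not a measured site.
ASNS, chr7:97872458-97872487, minus strand: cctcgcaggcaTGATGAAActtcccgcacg
ATF3, chr1:212565205-212565234, plus strand: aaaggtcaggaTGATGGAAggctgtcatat
CHAC1, chr15:40953251-40953280, plus strand: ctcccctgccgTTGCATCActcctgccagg
HERPUD1, chr16:56931955-56931984, plus strand: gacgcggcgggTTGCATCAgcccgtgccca
The CHAC1 and HERPUD1 words are in the opposite orientation, and they were the 2 of these 4 that match TGATGCAA, a form found in 0.923% of promoters and 0.417% of those of tested genes.

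The libraries held between 28464057 and 31688095 read pairs in genes. RIPK4 itself was at 85.8, 76.5 and 54.7 CPM (read pairs scaled to library size) in neg.si and at 19.9, 16.7 and 21.5 CPM in RIPK4.si. Its log2 fold change was -1.90 (SE 0.203), with an adjusted p of 0.0102 (edgeR quasi-likelihood test, Benjamini-Hochberg over 16297 genes), although the adjusted p lay between 0.0622 and 0.106 when neg.si replicate 2 or any 1 of the RIPK4.si libraries was left out. All 8 melanocyte lineage markers were detected in every library, while the other cell type lists were low apart from single genes. The keratinocyte list summed to 10.6 to 16.3 CPM, nearly all of it KRT10 (10.2 to 16.1 CPM), with KRT5 and KRT14 under 1 CPM. The fibroblast list summed to 512.7 to 1041.9 CPM, nearly all of it COL1A2 (510.1 to 1038.9 CPM), with COL1A1 and DCN under 1 CPM. The leukocyte and endothelial lists stayed under 4 CPM. The control libraries differed among themselves with GC content: the rank correlation of each gene's deviation with its GC content was 0.564 in neg.si replicate 1 and -0.555 in neg.si replicate 3, and between -0.0839 and 0.167 in the other 4 libraries. Values without 1 of these 2 libraries are given for several members below.

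With edgeR, 0 of the 43 members passed an adjusted p of 0.05 in the comparison of RIPK4.si with neg.si, in which 125 of 16297 genes (0.767%) passed. DESeq2, the tool that the study's authors used, called 2 members, DNAJB9 and STC2, and 437 of 15015 genes (2.91%). There were 6 members with an unadjusted p under 0.05, all higher in RIPK4.si: DNAJB9, STC2, CREB3L2, SHMT2, MTHFD2 and ASNS. Of all genes tested, 4.85% were higher and 6.0% were lower at that threshold. Leaving out neg.si replicate 2, RIPK4.si replicate 2 or RIPK4.si replicate 3 brought the number of higher members down to 3. The number of lower members at that threshold was 2 in place of 0 when neg.si replicate 3 or RIPK4.si replicate 1 was left out. For 35 of the 43 genes the 95% interval of the log2 fold change lay within 1 on either side of 0. In bulk RNA, fewer cells that express a gene cannot be told apart from less of its RNA per cell.

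**Figure D1:**
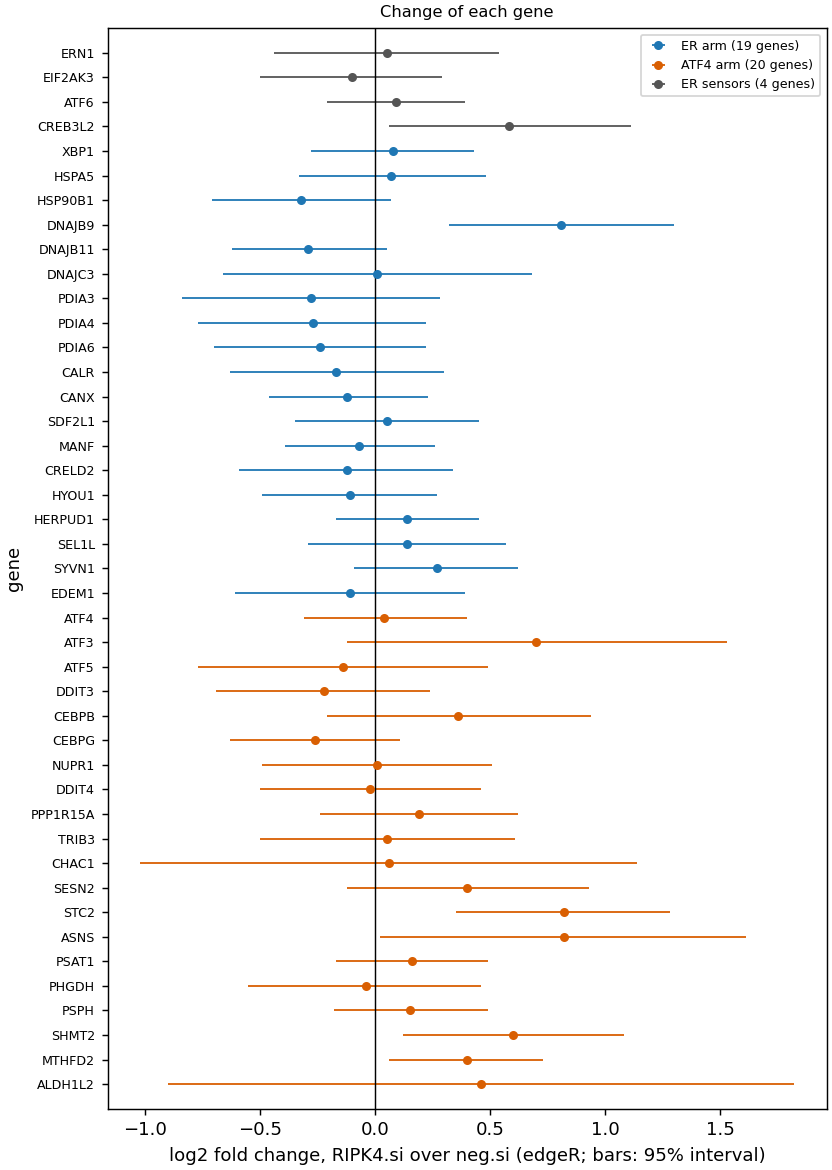
Log2 fold change of RIPK4.si over neg.si (horizontal axis) for each of the 43 genes, with the 95% interval of the edgeR fit as bars and the arm as colour. The intervals of 6 genes lie wholly above 0 and those of 0 genes wholly below it. DNAJB9, STC2 and ASNS have the largest estimates, at 0.81 to 0.82.

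The chaperones were abundant in these cells. Per kilobase of the canonical transcript, CALR (calreticulin, a lectin chaperone) stood at 1085.3 ± 166.7 CPM per kb in neg.si (SD, n = 3), above HSP90B1 (GRP94) at 771.4 ± 90.7 and HSPA5 (BiP) at 746.3 ± 71.0. HSP90B1 and HSPA5 did not differ beyond their spread. Next came PDIA4 at 323.0 ± 39.3, PDIA3 at 319.3 ± 73.1 and CANX at 313.1 ± 31.7 CPM per kb, 3 levels that also lay within their spread. Among the regulators, ATF4 at 132.3 ± 11.0 and XBP1 at 118.9 ± 4.21 CPM per kb were close to each other, and DDIT3 was at 15.1 ± 3.70. The stress-induced genes CHAC1 and ATF3 were low, at 0.766 ± 0.448 and 0.469 ± 0.139 CPM per kb.

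**Figure D2:**
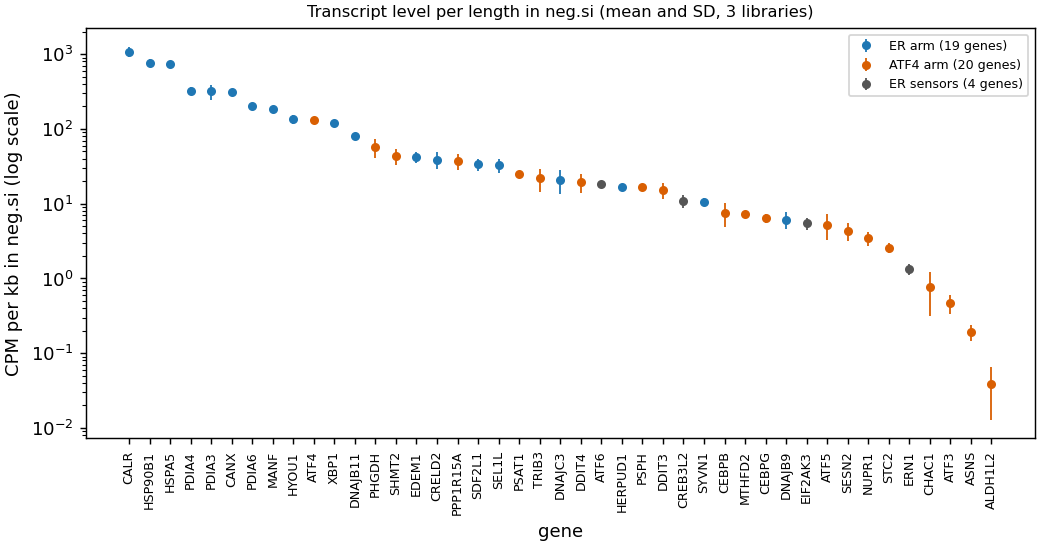
Level of each gene in neg.si in CPM per kilobase of canonical transcript (vertical axis, log scale; points are means and bars SDs of 3 libraries), ordered from highest to lowest. The first 9 genes belong to the ER arm, ATF4 is the highest gene of its arm at 132.3, and the 4 lowest genes (CHAC1, ATF3, ASNS and ALDH1L2) belong to the ATF4 arm, although the level of ASNS, 96.1% of whose coding bases a gene on the same strand shares, cannot be taken as its abundance.

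Among the sensors, CREB3L2 had the largest estimate and the other 3 lay within 0.10 of 0 on the log2 scale. ERN1 was at 9.98, 9.42 and 12.7 CPM in neg.si and at 13.3, 8.45 and 11.6 CPM in RIPK4.si. EIF2AK3 was at 20.3, 25.4 and 29.4 CPM in neg.si and at 24.3, 22.1 and 23.4 CPM in RIPK4.si. The groups overlapped for both kinases, whose log2 fold changes were 0.05 (95% interval -0.44 to 0.54, adjusted p = 0.975, edgeR) and -0.10 (-0.50 to 0.29, adjusted p = 0.926). ATF6 was at 138.5, 139.3 and 129.1 CPM in neg.si and at 147.5, 144.9 and 140.4 CPM in RIPK4.si. Its groups did not overlap, but the log2 difference was only 0.09 (-0.21 to 0.39), with an adjusted p of 0.915 (edgeR). These are RNA levels and do not report kinase activity or cleavage.

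CREB3L2 encodes BBF2H7, a membrane-anchored transcription factor related to ATF6 that acts on genes of secretion. It was at 66.4, 78.2 and 99.5 CPM in neg.si and at 142.8, 83.8 and 138.9 CPM in RIPK4.si. RIPK4.si replicates 1 and 3 were above every control library, while replicate 2 lay among them. The log2 fold change was 0.58 (SE 0.234, 95% interval 0.06 to 1.11), with an unadjusted p of 0.0336 and an adjusted p of 0.390 (edgeR).

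The ER arm as a whole lay close to 0, with a median log2 fold change of -0.11 (8 genes above 0 and 11 below) against -0.02 over all genes tested. Of the 14 folding genes, 10 had negative estimates, and their median was -0.12. The ER-arm median was -0.02 when either neg.si replicate 1 or RIPK4.si replicate 2 was left out, and -0.03 when neg.si replicate 3 was. The 6 genes with an ERSE had a median of -0.12, and the 3 with an ERSE-II had a median of 0.05.

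HSPA5, the ER Hsp70 chaperone that holds the sensors inactive and the usual marker of the ATF6 branch, was at 2693.6, 2851.1 and 3234.6 CPM in neg.si. It was at 3677.6, 2627.2 and 2918.2 CPM in RIPK4.si, so that the RIPK4.si libraries held both the highest and the lowest value. The log2 fold change was 0.07 (SE 0.180, 95% interval -0.33 to 0.48, adjusted p = 0.959, edgeR), which fell to -0.07 without RIPK4.si replicate 1. XBP1 was at 210.6, 221.4 and 206.8 CPM in neg.si and at 196.9, 266.0 and 211.4 CPM in RIPK4.si. These values overlapped, with a log2 fold change of 0.08 (-0.28 to 0.43, adjusted p = 0.944, edgeR). Gene counts do not separate spliced from unspliced XBP1 mRNA.

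DNAJB9 (ERdj4, chr7:108569867-108574850 on GRCh38) had the highest estimate of the ER arm. It encodes an ER co-chaperone of BiP that is induced through XBP1 and restrains IRE1. It was at 10.7, 15.2 and 18.4 CPM in neg.si and at 22.4, 28.2 and 26.9 CPM in RIPK4.si. Every RIPK4.si library was above every control library. The mean went from 14.8 ± 3.87 to 25.8 ± 3.06 CPM (SD, n = 3), a log2 fold change of 0.81 (SE 0.218, 95% interval 0.32 to 1.30). The unadjusted p was 0.0046 and the adjusted p 0.161 (edgeR). DESeq2 gave DNAJB9 an adjusted p of 0.0237, and edgeR gave 0.016 once the trend of each library on GC content was removed, where 556 of 16239 genes (3.42%) passed. Without neg.si replicate 3 its log2 fold change was 1.0 with an adjusted p of 0.0316, in a fit that called 1.78% of genes, whereas leaving out neg.si replicate 1 gave 0.64 with an adjusted p of 0.184. Over all alternatives the adjusted p ran from 0.016 to 0.556.

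Most other folding genes had estimates below 0. HSP90B1 was at 2024.7, 1977.6 and 2436.1 CPM in neg.si and at 2003.4, 1626.0 and 1529.5 CPM in RIPK4.si, the lowest estimate of all members at -0.32 (-0.71 to 0.07, adjusted p = 0.587, edgeR). The co-chaperone DNAJB11 (ERdj3) was at 137.1, 121.0 and 134.3 CPM in neg.si against 117.7, 110.4 and 93.7 CPM in RIPK4.si. It was the 1 member whose RIPK4.si values all lay below neg.si, where 9.40% of all genes did so. Its log2 fold change was -0.29 (adjusted p = 0.559, edgeR), and -0.19 when RIPK4.si replicate 3 was left out. A gene on the same strand shares 40.9% of the DNAJB11 coding bases, and the part of this overlap was not tested. The remaining folding genes were the disulfide isomerases PDIA3, PDIA4 and PDIA6, the lectin chaperones CALR and CANX, and DNAJC3, SDF2L1, MANF, CRELD2 and HYOU1. Their estimates ran from -0.28 for PDIA3 to 0.05 for SDF2L1, with overlapping groups. They depended on single libraries: leaving out RIPK4.si replicate 1 gave -0.52 for PDIA3, -0.50 for PDIA4, -0.47 for PDIA6 and -0.35 for CALR, and leaving out RIPK4.si replicate 2 gave -0.07 for PDIA3, -0.08 for PDIA4 and -0.07 for PDIA6. CALR was at -0.02 when RIPK4.si replicate 2 or neg.si replicate 1 was left out.

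For 9 of the 14 (64.3%) the lowest of the 6 values was in RIPK4.si replicate 2, the library that held the lowest value of 23.6% of all genes tested. PDIA4, for example, was at 965.5 and 711.5 CPM in RIPK4.si replicates 1 and 3 and at 542.5 CPM in replicate 2. DNAJB9 behaved otherwise, with its highest value in that library. Averaged over the 19 ER-arm genes, the log2 deviation from the gene mean was 0.15 in RIPK4.si replicate 1 and -0.18 in replicate 2, a gap within 1 group that exceeds the difference between the groups. The share of counts from mitochondrial genes was 9.61% in RIPK4.si replicate 1 and 13.4% in replicate 2, the lowest and the highest of the 6 libraries, and its part in this gap was not tested.

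The 4 genes of ER-associated degradation had a median of 0.14. The ubiquitin ligase SYVN1 (HRD1) was at 34.2, 35.5 and 27.6 CPM in neg.si and at 40.9, 38.8 and 37.3 CPM in RIPK4.si. HERPUD1, a membrane partner of that ligase, was at 47.9, 46.6 and 48.2 CPM in neg.si and at 50.9, 56.6 and 50.1 CPM in RIPK4.si. In both genes the groups did not overlap, but the differences were small at 0.27 (adjusted p = 0.638, edgeR) and 0.14 (adjusted p = 0.834). Leaving out 1 library gave 0.17 to 0.35 for SYVN1 and 0.10 to 0.19 for HERPUD1. SEL1L, the adaptor of SYVN1, was at 0.14 and EDEM1, a mannosidase-like lectin, at -0.11 on the log2 scale. SEL1L was at 0.03 when neg.si replicate 1 was left out and at 0.33 when neg.si replicate 3 was.

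The ATF4 arm had a median log2 fold change of 0.16, with 15 genes above 0 and 5 below. Leaving out neg.si replicate 1 gave 0.27, and leaving out neg.si replicate 3 gave 0.09. Its 7 transcription factors centred on 0.01, its 6 effectors on 0.13 and its 7 enzymes of amino acid and folate metabolism on 0.40. The enzyme median includes ASNS at 0.82 and ALDH1L2 at 0.46, both with few counts, and therefore does not set the enzymes apart. PHGDH, PSAT1 and PSPH were at -0.04, 0.16 and 0.15. ATF4 mRNA was at 205.1, 183.1 and 175.1 CPM in neg.si and at 226.2, 184.3 and 170.5 CPM in RIPK4.si. The groups overlapped, with a log2 fold change of 0.04 (-0.31 to 0.40, adjusted p = 0.972, edgeR). ATF4 is controlled largely in translation, which these data do not measure.

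DDIT3 (CHOP), a factor of stress-induced death and a direct ATF4 target, was at 16.8, 14 and 10.1 CPM in neg.si and at 12, 12 and 11 CPM in RIPK4.si. Its log2 fold change was -0.22 (-0.69 to 0.24, adjusted p = 0.822, edgeR), and leaving out neg.si replicate 1 gave -0.03 while leaving out neg.si replicate 3 gave -0.39. The opposite-strand gene MARS1 shares 33.5% of the coding bases of DDIT3, and counting without strand cannot assign such reads. ATF3, an immediate stress factor, was at 1.07, 1.07 and 0.598 CPM in neg.si and at 0.988, 1.97 and 1.48 CPM in RIPK4.si. With values this low its log2 fold change of 0.70 had an SE of 0.366 and an adjusted p of 0.561 (edgeR). ATF5, CEBPB, CEBPG and NUPR1 lay between -0.26 for CEBPG and 0.36 for CEBPB, with overlapping groups. A gene on the same strand shares 47.6% of the NUPR1 coding bases. CEBPB was at 0.69 when neg.si replicate 1 was left out and at 0.16 when neg.si replicate 3 was.

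Among the effectors, STC2 (stanniocalcin 2, a secreted glycoprotein induced through PERK and ATF4, chr5:173314713-173329503) differed most. It was at 9.36, 12.9 and 10.8 CPM in neg.si and at 23.4, 15.6 and 19.2 CPM in RIPK4.si. Every RIPK4.si value lay above the control values. The mean went from 11.0 ± 1.79 to 19.4 ± 3.89 CPM (SD, n = 3), a log2 fold change of 0.82 (SE 0.207, 95% interval 0.35 to 1.28). The unadjusted p was 0.0031 and the adjusted p 0.134 (edgeR), against 0.015 by DESeq2 and 0.0334 with the GC trend removed. Leaving out 1 library gave adjusted p-values from 0.0961 to 0.489. DNAJB9 and STC2 were the 2 members called by DESeq2 and also the 2 called after GC removal, and neither promoter held any of the motifs searched.

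The other effectors did not pass an unadjusted p of 0.05. SESN2 (sestrin 2, an inhibitor of mTORC1) had a log2 fold change of 0.40 (-0.12 to 0.93), and PPP1R15A (GADD34, which returns eIF2 alpha to its unphosphorylated state) had 0.19. Leaving out neg.si replicate 1 gave 0.58 for SESN2 and 0.42 for PPP1R15A, and leaving out neg.si replicate 3 gave 0.20 and 0.06. TRIB3, a pseudokinase that restrains ATF4, was at 67.6, 53.1 and 33.7 CPM in neg.si against 51.4, 62.6 and 45.9 CPM in RIPK4.si, so that the controls alone spanned the whole range. CHAC1, which degrades glutathione, was at 1.55, 1.57 and 0.378 CPM in neg.si and at 0.954, 1.49 and 1.19 CPM in RIPK4.si. The low control value was in neg.si replicate 3 for both genes, and DDIT4 (REDD1) had its lowest value there as well, with a log2 fold change of -0.02.

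SHMT2 and MTHFD2, enzymes of mitochondrial one-carbon metabolism, had groups that did not overlap. SHMT2, which takes the carbon unit from serine (chr12:57229573-57234935), was at 115.0, 95.4 and 69.4 CPM in neg.si and at 125.9, 171.3 and 125.9 CPM in RIPK4.si. MTHFD2, the next enzyme of that route (chr2:74198610-74217565), was at 30.9, 33.6 and 30.9 CPM in neg.si and at 37.2, 44.9 and 43.5 CPM in RIPK4.si. All RIPK4.si values were above the controls for both. SHMT2 had a log2 fold change of 0.60 (SE 0.214, unadjusted p = 0.0204, adjusted p = 0.324, edgeR), which was 0.43 when neg.si replicate 3 was left out and 0.79 when neg.si replicate 1 was. MTHFD2 had 0.40 (SE 0.150, unadjusted p = 0.0254, adjusted p = 0.349), and neither was called under any alternative. ALDH1L2, which oxidises the one-carbon unit in mitochondria, was at 0.129 to 0.504 CPM in neg.si and 0.173 to 0.545 CPM in RIPK4.si and is too low to compare.

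ASNS (asparagine synthetase, chr7:97851677-97872542) gave 17, 10 and 16 read pairs in neg.si and 23, 26 and 24 read pairs in RIPK4.si. The groups did not overlap, with a log2 fold change of 0.82 (SE 0.352, unadjusted p = 0.0444, adjusted p = 0.436, edgeR). A long noncoding gene annotated on the same strand shares 96.1% of the ASNS coding bases. Read pairs that fit both genes are commonly left uncounted, so the printed level of ASNS cannot be taken as its abundance. Of the serine synthesis enzymes, PHGDH was at -0.04, PSAT1 at 0.16 and PSPH at 0.15 on the log2 scale, all with overlapping groups. Leaving out 1 library gave 0.12 to 0.25 for PSAT1 and 0.11 to 0.24 for PSPH.

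**Figure D3:**
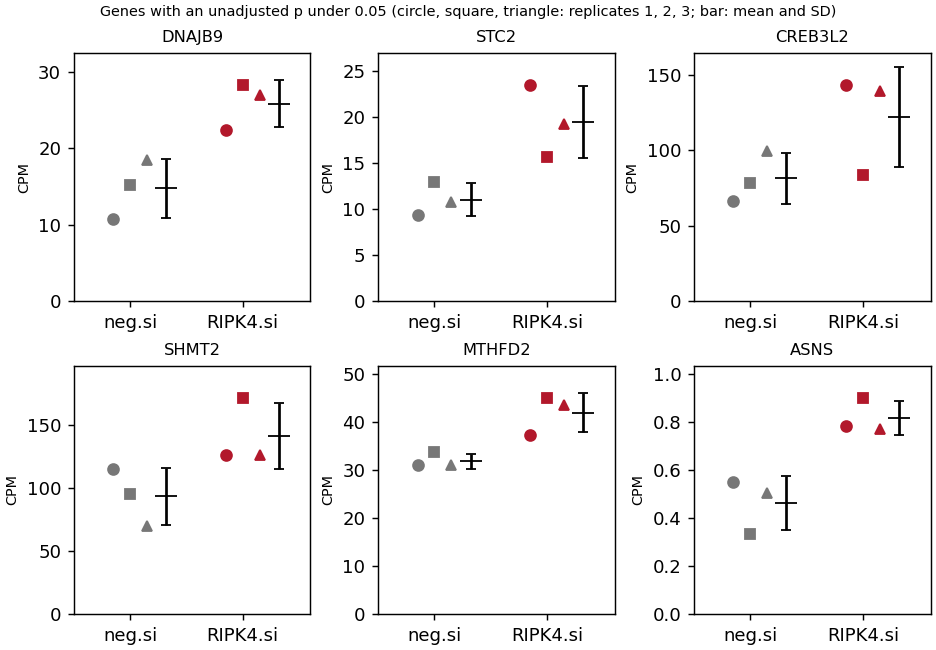
CPM (vertical axes, each from 0) in the 3 neg.si and 3 RIPK4.si libraries for the 6 members with an unadjusted p under 0.05; points are libraries, horizontal marks with bars are the mean and SD. The groups are apart in 5 panels, and in the CREB3L2 panel 1 RIPK4.si library, at 83.8 CPM, lies among the controls.

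Over all 43 genes, 8 had every RIPK4.si value above every neg.si value (DNAJB9, HERPUD1, SYVN1, ATF6, STC2, ASNS, SHMT2 and MTHFD2), where 8.23% of all genes did so. These 8 comprised 3 genes of the ER arm, 4 of the ATF4 arm and 1 sensor.

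**Figure D4:**
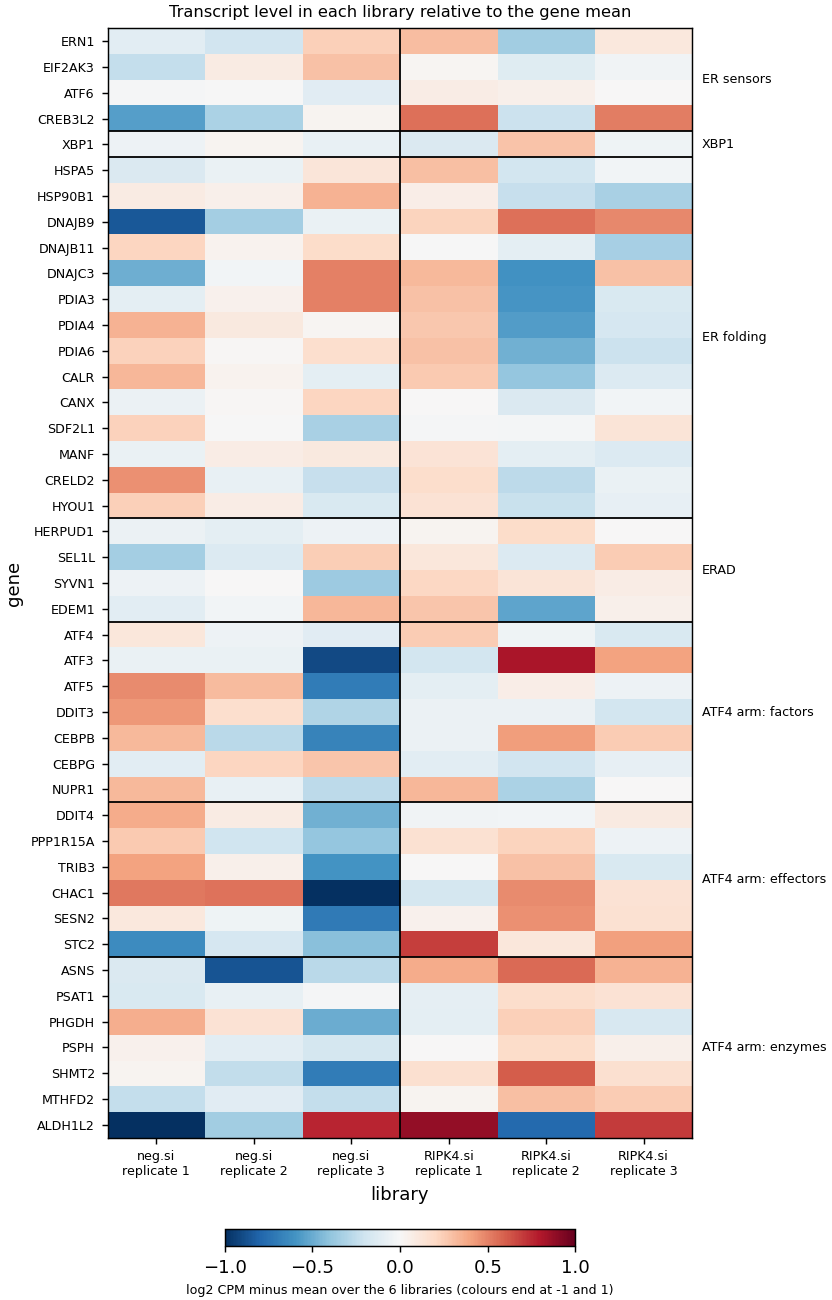
Colour gives log2 CPM minus the mean over the 6 libraries for each gene (rows, grouped by role) in each library (columns, neg.si left and RIPK4.si right of the line). Blue cells gather in the RIPK4.si replicate 2 column among the folding genes, 9 of 14 of which are lowest there, and in the neg.si replicate 3 column among the ATF4-arm genes, 13 of 20 of which are lowest there.

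The difference between control libraries fell unevenly on the arms. For 13 of the 20 ATF4-arm genes (65.0%) the lowest value was in neg.si replicate 3, where 29.0% of all genes tested had theirs. The log2 difference of neg.si replicate 1 minus replicate 3 had a median of 0.69 over the ATF4 arm (15 genes higher in replicate 1 and 4 in replicate 3) and of -0.01 over the ER arm. The median GC content of the canonical transcripts was 51.9% in the ATF4 arm and 46.1% in the ER arm. Across the 43 genes this difference rank-correlated with GC content at 0.833, compared with 0.645 across 16239 genes. Genes are not independent, and all points share the same 2 libraries. With the GC trend removed the median log2 fold change was 0.19 for the ATF4 arm and -0.08 for the ER arm, so the order of the arms was kept.

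**Figure D5:**
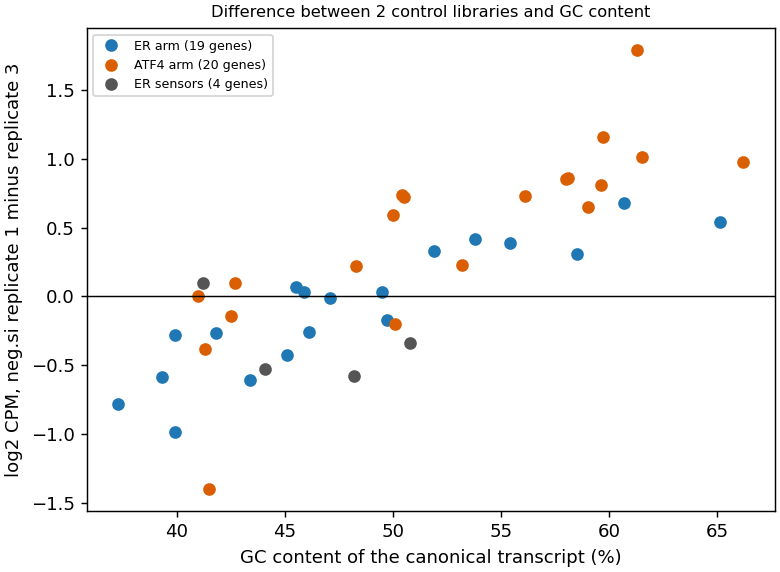
GC content of the canonical transcript in percent (horizontal axis) against log2 CPM of neg.si replicate 1 minus neg.si replicate 3 (vertical axis), 1 point per gene, coloured by arm. Points climb from below 0 at low GC content to above 0 at high GC content, and 15 of the 20 ATF4-arm genes lie above 0.

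Genes of the same pathways outside the 43 were examined by list. Over all genes, edgeR called 0.767% and DESeq2 called 2.91%. At an unadjusted p under 0.05 (edgeR), 4.85% of all genes tested were higher and 6.0% were lower. Of 35 tested further ER folding genes 0 were called by edgeR, 2 were higher and 1 lower at an unadjusted p under 0.05, and DESeq2 called 0. KDELR3, a receptor that returns chaperones to the ER, was at 86.3 ± 3.97 CPM in neg.si and 121.1 ± 17.6 CPM in RIPK4.si (0.49, adjusted p = 0.237, edgeR). The glucosidase MOGS was at 0.54 (adjusted p = 0.391) and the calcium-binding RCN1 at -0.36 (adjusted p = 0.384).

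Of 24 further degradation genes 0 were called by edgeR and 1, UBE2G2, by DESeq2, and 2 were lower at an unadjusted p under 0.05. UBE2G2, a ubiquitin-conjugating enzyme of this route, went from 39.6 ± 4.66 to 26.1 ± 1.72 CPM (-0.60, adjusted p = 0.146, edgeR). DERL2 (derlin 2) went from 48.6 ± 1.90 to 34.3 ± 2.39 CPM (-0.50, adjusted p = 0.18). Over the 24 genes 14 estimates were positive and 10 negative, with a median of 0.03.

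Of 32 genes of ER translocation 3 were higher and 1 lower at an unadjusted p under 0.05, with a median log2 fold change of 0.02. The lower gene was SPCS2, a signal peptidase subunit (-0.54, adjusted p = 0.148, edgeR), named after its value was seen, as were the higher SSR1 and TRAM2. The 1 gene that passed the adjusted threshold was SRPRA, the alpha subunit of the signal recognition particle receptor. It was at 123.1, 131.7 and 104.6 CPM in neg.si and at 227.6, 263.2 and 236.5 CPM in RIPK4.si. These groups were well apart, with a log2 fold change of 1.02 (SE 0.152, adjusted p = 0.0329, edgeR). The adjusted p was above 0.05, at up to 0.214, without neg.si replicate 2 or any 1 of the RIPK4.si libraries.

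Of 36 further ATF4 targets 7 were higher and 1 lower at an unadjusted p under 0.05, with a median log2 fold change of 0.13, and 1 passed the adjusted threshold. That gene, JDP2, encodes a bZIP repressor related to ATF3. It was at 2.16, 1.83 and 1.61 CPM in neg.si and at 4.50, 4.71 and 4.12 CPM in RIPK4.si. The log2 fold change was 1.25 (SE 0.219, adjusted p = 0.0422, edgeR). Every RIPK4.si value was above 4 CPM and every control value under 3 CPM. The adjusted p ran from 0.000834 to 0.28 over the alternatives and was above 0.05 with the replicate block and whenever any library other than neg.si replicate 3 was left out. DESeq2 called 3 genes of the list, JDP2 with VLDLR and VEGFA, which are named because of these calls. VLDLR, a lipoprotein receptor, went from 87.9 ± 6.89 to 52.6 ± 3.20 CPM (-0.74, adjusted p = 0.0562 by edgeR and 0.00129 by DESeq2), and its groups did not overlap. VEGFA, an angiogenic growth factor, went from 251.3 ± 19.6 to 387.7 ± 16.3 CPM (0.63, adjusted p = 0.0966 by edgeR and 0.00807 by DESeq2).

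Of 20 genes of eIF2 and its kinases and phosphatases 0 were called by edgeR or DESeq2. OMA1, the mitochondrial protease upstream of the kinase HRI, was at 0.37 (adjusted p = 0.349, edgeR) and EIF2B1, a subunit of the eIF2 exchange factor, at -0.32 (adjusted p = 0.439), the 2 with an unadjusted p under 0.05. Of 17 tested genes of the IRE1 and ATF6 route 0 were called by either tool and 0 had an unadjusted p under 0.05. Of 12 further one-carbon enzymes 0 were called by either tool, and MTHFD1L, which follows MTHFD2 in mitochondria, had an unadjusted p under 0.05 (0.38, adjusted p = 0.406, edgeR).

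Transfected double-stranded RNA can also reach eIF2 alpha through the interferon-induced kinase PKR, so interferon-stimulated genes were examined. Cells of both groups were transfected with siRNA. EIF2AK2, which encodes PKR, was at 59.9, 107.3 and 167.7 CPM in neg.si and at 129.3, 73.1 and 141.7 CPM in RIPK4.si. These values overlapped, with a log2 fold change of 0.04 (adjusted p = 0.989, edgeR). Of 18 interferon-stimulated genes, 16 had positive estimates, with a median of 0.28. MX1 at -0.30 and IFI6 at -0.07 were the 2 below 0. There were 3 higher at an unadjusted p under 0.05, and 0 were called by edgeR. Of all 16297 genes tested, 7596 had positive estimates and 4.85% were higher at that threshold. OAS2, a sensor of double-stranded RNA, was at 130.5, 244.8 and 140.5 CPM in neg.si and at 254.8, 378.5 and 352.7 CPM in RIPK4.si (0.93, adjusted p = 0.179 by edgeR and 0.0211 by DESeq2). With the replicate block in edgeR, OAS2 also passed the adjusted threshold. IFI44L was at 0.93 (adjusted p = 0.291) and OASL at 0.90 (adjusted p = 0.42). The summed level of the list was 1837.4 to 2754.0 CPM in neg.si and 2092.1 to 2931.9 CPM in RIPK4.si, and the part of interferon signalling in the member values was not tested. The summed level of the 8 melanocyte lineage markers was 3573.5 to 4012.3 CPM in neg.si and 2634.8 to 2759.3 CPM in RIPK4.si, and 4 of them were lower at an unadjusted p under 0.05. The sum is carried by the most abundant genes, and 3 of the 8 had positive estimates: TYRP1 at 0.36, MLANA at 0.06 and MITF at 0.04. PMEL, the structural protein of melanosomes, fell (log2 fold change -1.30, adjusted p = 0.0111, edgeR). Its adjusted p was above 0.05, at up to 0.129, when neg.si replicate 2 or any 1 of the RIPK4.si libraries was left out. DESeq2 called 3, PMEL with the pigment enzymes DCT (-0.73, adjusted p = 0.0854 by edgeR and 0.00352 by DESeq2) and TYR (-0.57, 0.148 by edgeR and 0.0407 by DESeq2). The part of these lineage genes in the member values was not tested either.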

How the data were processed

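RNA-seq of 6 WM266.4 libraries was analysed, 3 neg.si and 3 RIPK4.si, which the study's methods call biological replicates. The authors trimmed reads with Cutadapt, aligned the pairs to GRCh38.p13 (TopHat) and assigned them to genes with HTSeq, ignoring strand. They tested differential expression with DESeq2, which is an alternative here. The deposited count values are whole, not normalized and limited to genes with a total of at least 6. The table also holds 6 columns of normalized values and the authors' own comparison (fold changes and p-values), which were not used.

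Counts were tested with edgeR 4.0.16 in R 4.3.3 (TMM, filterByExpr, quasi-likelihood test of group, Benjamini-Hochberg over 16297 genes, threshold 0.05). A check on simulated counts, which held no GC trend, required only that median fitted fold changes lay near those set. DESeq2 1.42.0, other normalizations and filters, a replicate block, removal of the GC trend (lowess span 0.3) and leaving out each library were alternatives. Levels are TMM-normalized CPM. Intervals are 95%. With 3 against 3 libraries an exact permutation test cannot go below p = 0.1, so none is given. Canonical transcripts, coordinates and overlaps came from GENCODE on GRCh38 and promoters from RefSeq. Motifs were searched on both strands.

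The members and lists were chosen with earlier results of these data known. Values in each library were printed for ATF4, DDIT3, ATF3, XBP1, HSPA5, ATF6, ERN1 and EIF2AK3, for members with an unadjusted p under 0.05 and for members called under any alternative; other members are given as examples, chosen after their values were seen. Outside the members, RIPK4, called genes and up to 3 genes a list with an unadjusted p under 0.05 were named. VLDLR, VEGFA, DCT and TYR were added after their DESeq2 calls were seen. Other cell type markers, EIF2AK2, MX1 and IFI6 were also named, after their values were seen. SLC25A32, KRT1, CD68 and CDH5 were not analysed here.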

Additional observations from a re-analysis of the deposited data

How the results depend on the processing

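The count of called members, 0, became 2 with DESeq2, 2 with the GC trend removed and 0 to 1 when 1 library was left out. RIPK4 kept its direction when 1 library was left out, with log2 fold changes from -2.06 to -1.74 and adjusted p-values up to 0.106. The calls were 1 among further ER folding genes with the GC trend removed and 1 among further degradation genes with DESeq2 and with the GC trend removed. ER translocation genes gave 0 to 1 calls when 1 library was left out. Further ATF4 targets gave 3 with DESeq2, 4 with the GC trend removed and 0 to 2 when 1 library was left out. Interferon-stimulated genes gave 1 with DESeq2. Of the 43 members, 27 kept their direction under every alternative. The cause of these changes was not tested. Over all genes, calls numbered 125, 437 with DESeq2, 556 with the GC trend removed and 0 to 295 when 1 library was left out, being 0 without neg.si replicate 2, RIPK4.si replicate 1 or RIPK4.si replicate 3. Leaving out RIPK4.si replicate 2 gave 4 calls, leaving out neg.si replicate 1 gave 70 and leaving out neg.si replicate 3 gave 295.

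Leaving out 1 library turned the sign of 16 members, whose estimates from all libraries lay between -0.14 and 0.08. Their log2 fold changes then ran from -0.07 to 0.18 for HSPA5, -0.18 to 0.31 for DNAJC3, -0.08 to 0.21 for SDF2L1, -0.26 to 0.12 for CRELD2, -0.20 to 0.00 for HYOU1 and -0.28 to 0.10 for EDEM1. They ran from -0.05 to 0.18 for XBP1, -0.09 to 0.23 for ERN1, -0.22 to 0.03 for EIF2AK3, -0.07 to 0.13 for ATF4, -0.42 to 0.09 for ATF5 and -0.15 to 0.21 for NUPR1. For DDIT4 they ran from -0.22 to 0.20, for TRIB3 from -0.18 to 0.31, for CHAC1 from -0.36 to 0.34 and for PHGDH from -0.25 to 0.16.

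The labels number the replicates 1 to 3 in both groups but do not say that a number marks a shared culture or day. The deviations of same-numbered libraries correlated at -0.242, 0.251 and 0.346. Those of unlike-numbered libraries correlated at -0.498 to 0.413, so the numbers were not taken to pair the libraries. With the replicate block 0 members and 131 of all genes were called, further ATF4 targets gave 0 calls, interferon-stimulated genes gave 1, and the log2 fold change of DDIT4 was 0.02 in place of -0.02.

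Counts were few for ALDH1L2, ATF3 and CHAC1, near or under 1 CPM, which limits their precision. ASNS was as low, and whether its overlap with another gene lowered its count was not tested. When neg.si replicate 1 or, second, neg.si replicate 3 was left out, the log2 fold change was 0.85 and 0.48 for ATF3, 0.13 and 1.14 for ALDH1L2 and -0.38 and -0.07 for PDIA3.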
